A study of Mus musculus with 6 samples.

Results

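The genes described here are 10 negative feedback genes and readouts of ERK signalling, *Dusp1*, *Dusp4*, *Dusp5*, *Dusp6*, *Spry1*, *Spry2*, *Spry4*, *Spred1*, *Etv4* and *Etv5*. They were listed by symbol, and all 10 were found among the 14548 gene identifiers of the RNA-seq files. RNA was taken from the mouse myoblast line C2C12, in 3 WT libraries and 3 of the knockout line C11 (MSTN-KO). C11 was made with a guide to exon 3 of *Mstn* and a Cas9 nickase, and it is a single line, so an effect of the loss of MSTN and other differences between C11 and the WT cells cannot be told apart. The strain field reads C11 for the WT libraries too, and the genotype was used for grouping. No treatment was given to either group, and nothing states that the replicates were separate cultures, so p-values measure only the spread between these libraries.

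ERK is the last kinase of the RAS, RAF and MEK cascade, which carries signals from growth factor receptors to the nucleus. Active ERK turns on genes whose products act back on the cascade. Dual-specificity phosphatases (DUSPs) remove the activating phosphates from MAP kinases, and Sprouty and Spred proteins restrain the steps at RAS and RAF. The ETS factors ETV4 and ETV5 are transcription factors induced by FGF and ERK signalling. In myoblasts, ERK signalling favours proliferation and holds back the early steps of differentiation.

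*Mstn* RNA was near 0 in all 6 libraries, at most 0.0399 FPKM in WT and 0.0586 FPKM in MSTN-KO, so it gave no check of the labels. No other gene here was used to check them, and every direction given below is that between the libraries labelled MSTN-KO and WT. For *Fos* that direction was opposite to the one the authors reported, as given below. FPKM are fragments per kilobase of exon, scaled to the mapped fragments of a library. Their sum was 723705 to 764524 in WT and 856314 to 999579 in MSTN-KO. How many fragments lie behind a value is unknown, and no counting error could be given. *Myod1* lay between 126 and 167 FPKM in WT and between 90.8 and 104 FPKM in MSTN-KO, without overlap. Of the 4 myoblast markers tested, *Myod1* was lower (log2 fold change -0.58, limma adjusted p = 0.00986) and *Pax7* higher (0.64, 0.0415). *Myf5*, between 9.49 and 14.7 FPKM in every library, and *Vcam1* did not pass. Both adipocyte markers tested were higher by limma, with *Cebpa* at 4.30 to 5.76 FPKM in WT and at 15.2 to 17.5 FPKM in MSTN-KO. The other, *Fabp4*, passed the filter only through MSTN-KO libraries, so that its being tested depended on its MSTN-KO level. Of the 4 fibroblast markers tested, 1 was higher and 1 lower. The endothelial markers summed to at most 0.167 FPKM in any library. The summed level of 12 muscle differentiation markers was 1905, 1841 and 913 FPKM in WT replicates 1, 2 and 3 and 370.1 to 486 FPKM in MSTN-KO, where the 10 tested markers were lower by limma, *Myh3* and *Ckm* among them having passed the filter only through WT libraries. WT replicate 3 stood apart from the other WT libraries in these genes. Less RNA per cell and fewer differentiated cells cannot be told apart in bulk RNA, and the part of this difference in the results below was not tested.

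The 10 genes covered a wide range of expression in WT cells. *Dusp4* had the highest mean at 82.1 ± 15.8 FPKM (SD, n = 3), followed by *Dusp1* at 77.8 ± 6.62 FPKM and *Etv4* at 52.8 ± 6.41 FPKM. The libraries of *Dusp4* and *Dusp1* overlapped, so their order was within the spread. *Spry2* (27.9 ± 5.24 FPKM), *Dusp5* (27.0 ± 1.54 FPKM) and *Dusp6* (23.8 ± 3.13 FPKM) came next and overlapped as well. *Spred1* at 8.34 ± 0.651 FPKM, *Etv5* at 6.14 ± 0.473 FPKM, *Spry4* at 2.42 ± 0.428 FPKM and *Spry1* at 1.19 ± 0.369 FPKM were each below every library of the gene before. *Dusp4* lay at percentile 89.1 of the WT means of all tested genes and *Spry1* at percentile 5.79. In MSTN-KO cells *Dusp1* took the first place at 114 ± 10.6 FPKM, with each library above every *Dusp4* library.

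Of the 10 genes, 1 was higher and 2 were lower in the MSTN-KO libraries at a Benjamini-Hochberg adjusted p under 0.05. The test was limma on log2(FPKM + 1), over the 10837 genes that reached 1 FPKM in any library. *Dusp1* rose, and *Spry2* and *Etv5* fell. Over all tested genes, 8.78% were called higher and 8.96% lower, so the count higher is near its background and that lower is 2 where about 1 in 10 genes would be at the background share. Without WT replicate 3, which stood apart, *Dusp1* was again the only gene higher and *Spry2* the only gene lower, and over the 6 fits with 1 library left out the count lower was 0 or 1. The authors' rule for DEGs was a p under 0.05 and a log2 value over 1 or under -1. Applied here to the unadjusted limma p and log2(FPKM + 1), it was met by 0 of the 10 genes, against 3.51% of all tested genes. That scale understates changes near 1 FPKM. *Spry1* was at -0.98 with a pseudocount of 0.1, and its MSTN-KO mean was 0.454 times that of WT. An unadjusted p under 0.05 was found for 5 of the 10 genes, against 32.6% of all tested genes. The groups did not overlap for 5 of the 10 genes, 1 higher and 4 lower, where 19.3% of all tested genes lay wholly higher and 18.1% wholly lower. The median log2 fold change of the 10 genes was -0.12, and that of all tested genes was -0.00078. All 10 genes passed the filter on low values, but *Spry1* reached 1 FPKM only in WT libraries, so that its place among the tested genes itself depended on its WT level.

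**Figure D1:**
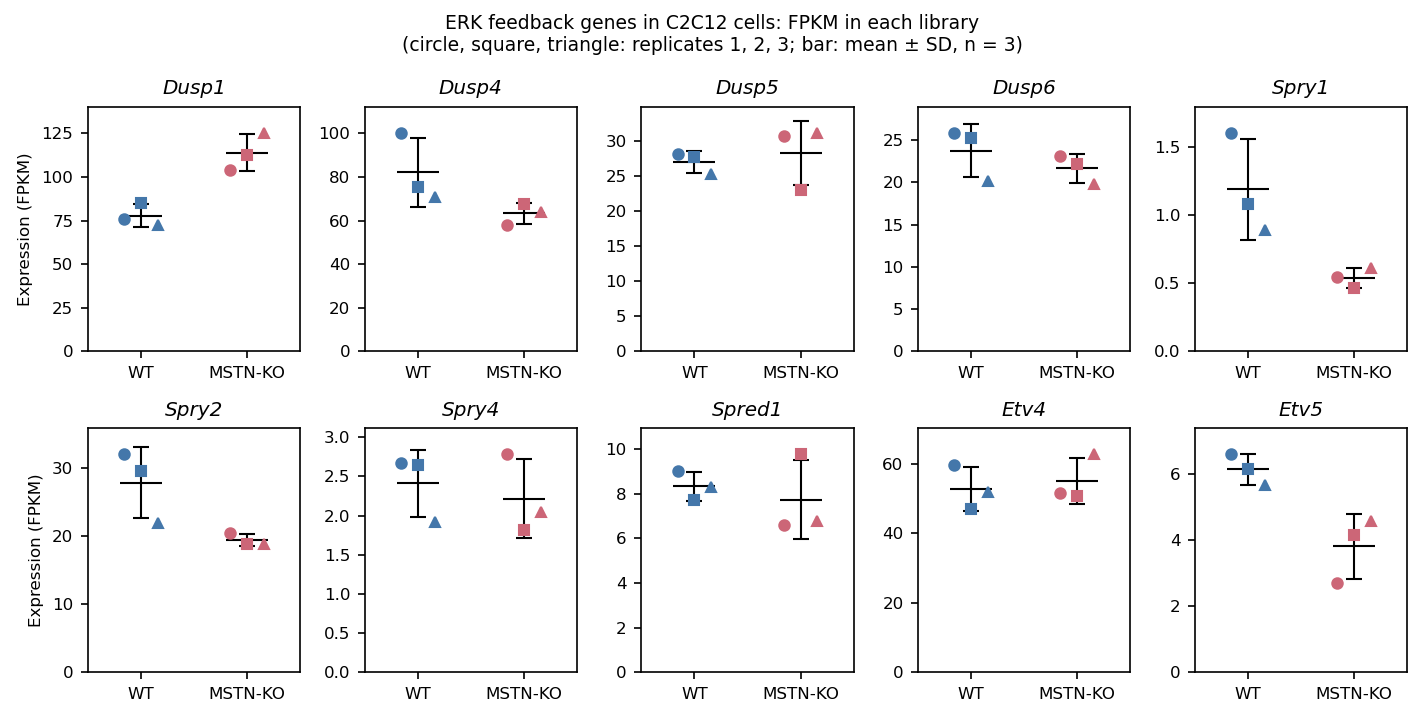
Expression of the 10 ERK feedback genes as FPKM (vertical axes, from 0) in each of 3 WT and 3 MSTN-KO libraries, with the mean and SD as bars. Every MSTN-KO library lay above every WT library for *Dusp1* and below every WT library for *Dusp4*, *Spry1*, *Spry2* and *Etv5*, and the groups overlapped for the other 5 genes.

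*Dusp1* encodes MKP-1, a nuclear phosphatase of p38, JNK and ERK that is itself an immediate early gene. Its WT libraries held 76.1, 85.1 and 72.2 FPKM, given here and below in the order of the replicates, and its MSTN-KO libraries held 104, 113 and 125 FPKM. The lowest MSTN-KO library was well above the highest WT library. The mean was 1.46 times that of WT, with a log2 fold change of 0.54 ± 0.13 (SE, adjusted p = 0.0105 by limma). The exact permutation test over libraries gave p = 0.1 (two-sided), the smallest that 3 libraries against 3 allow, as it did for the other 4 genes without overlap. The call held when any library was left out, with adjusted p between 0.0149 and 0.0389. It was lost when each library was scaled to a sum of 1000000 FPKM (log2 fold change 0.26, adjusted p = 0.0959), which moved the median of all genes to -0.26. The gene (ENSMUSG00000024190) spans chromosome 17 of GRCm38 from 26505590 to 26562128 through a long transcript, and its far end overlaps *Ergic1* on the other strand. Whether the counting used strand is not given in the sources used here. *Ergic1* was at 103 ± 11.7 FPKM in WT and 100.1 ± 11.5 FPKM in MSTN-KO (limma adjusted p = 0.851).

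*Dusp4*, on chromosome 8 from 34807297 to 34819894, encodes MKP-2, a nuclear phosphatase induced by ERK. Its values were 100.1, 75.6 and 70.6 FPKM in the WT libraries and 58.1, 67.7 and 64.1 FPKM in the MSTN-KO libraries. All MSTN-KO values lay below the WT values, but WT replicate 3 and MSTN-KO replicate 2 were close. The log2 fold change was -0.36 ± 0.15 (SE, adjusted p = 0.106 by limma) and did not pass. The 95% confidence interval ran from -0.67 to -0.043. With GC content and length corrected for, the value was -0.47 and passed (adjusted p = 0.0241). It did not pass with any library left out, and without WT replicate 1 it was -0.21 (adjusted p = 0.278).

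*Dusp5*, a nuclear phosphatase that acts on ERK, was at 28.1, 27.6 and 25.2 FPKM in WT and at 30.6, 23.0 and 31.1 FPKM in MSTN-KO. *Dusp6* encodes MKP-3, the cytoplasmic phosphatase of ERK and a common readout of its activity. It was at 25.8, 25.3 and 20.2 FPKM in WT and at 23.1, 22.2 and 19.8 FPKM in MSTN-KO. The groups overlapped for both genes. The log2 fold change of *Dusp5* was 0.052 (95% confidence interval -0.26 to 0.36), and its sign turned under quantile normalization, scaling to 1000000 and the length and GC correction. For *Dusp6* it was -0.12 (95% confidence interval -0.42 to 0.18). Neither gene passed the test (limma adjusted p = 0.828 and 0.584). *Dusp5* lies on chromosome 19 from 53529109 to 53542431, where an antisense gene overlaps it, and *Dusp6* on chromosome 10 from 99263231 to 99267489.

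The balance within the DUSP family can be read without any scaling of the libraries, since FPKM are per length and a ratio within a library cancels its total. *Dusp1* relative to *Dusp4* was 0.760, 1.13 and 1.02 in the WT libraries and 1.79, 1.66 and 1.95 in the MSTN-KO libraries. The ratio was thus higher in every MSTN-KO library, with a mean of 1.80 ± 0.144 against 0.970 ± 0.189 (SD, n = 3) and a log2 difference of 0.91. *Dusp1* also lay higher relative to *Dusp5* (4.10 ± 0.755 against 2.88 ± 0.187) and to *Dusp6* (5.30 ± 0.928 against 3.30 ± 0.323) in each MSTN-KO library. The ratios among *Dusp4*, *Dusp5* and *Dusp6* overlapped between the groups. Of the summed FPKM of these 4 phosphatases, *Dusp1* held 37.1% ± 3.56 in WT and 50.1% ± 1.98 in MSTN-KO, while the sum itself overlapped between the groups, at 211 ± 21.1 FPKM in WT and 227 ± 12.2 FPKM in MSTN-KO. In all, 13 ratios within the 3 families were compared. The groups did not overlap in 8 of them, each with an exact permutation p of 0.1, or 0.163 adjusted over the 13, and no smaller p is possible in a design of this size. The ratios share genes, with *Dusp1* in 3 of the 8 and *Spry1* in 3. Over all pairs of tested genes above 0 in every library, 39.3% had a ratio without overlap between the groups.

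**Figure D2:**
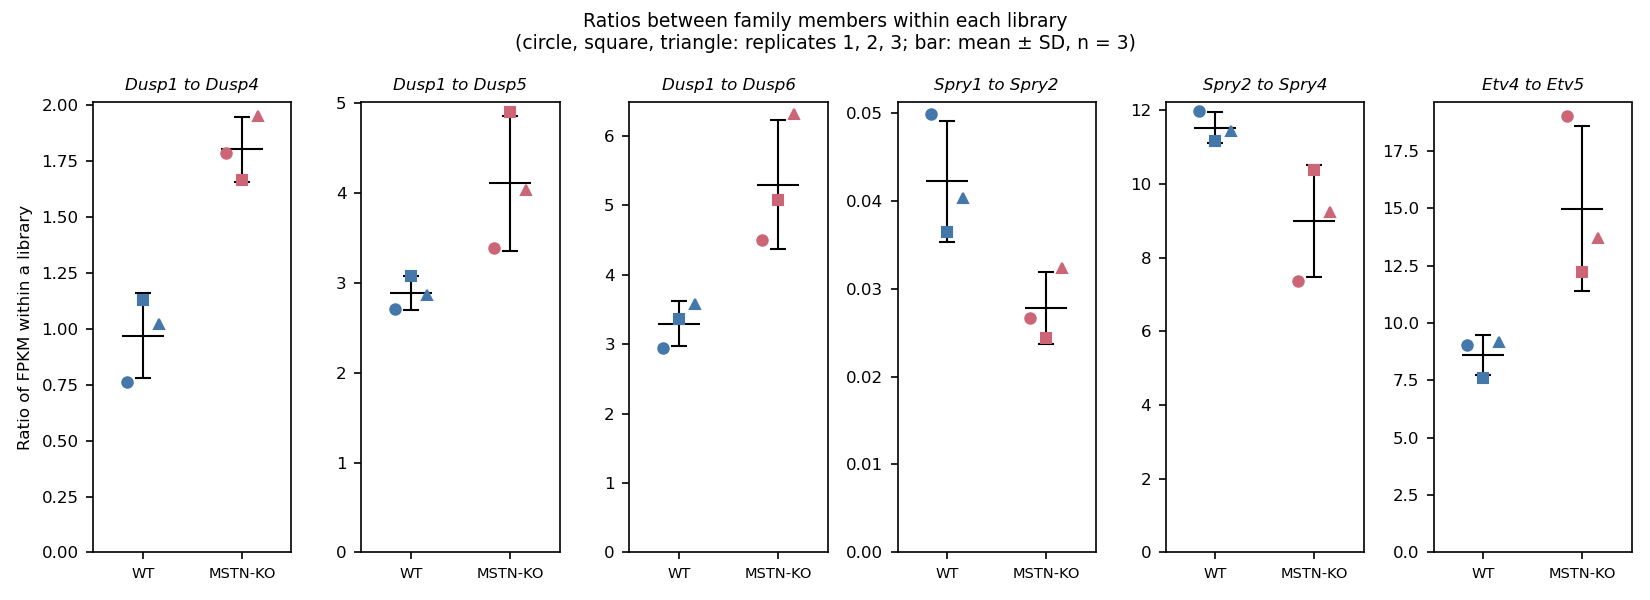
Ratios of FPKM between family members within each library (vertical axes, from 0) in 3 WT and 3 MSTN-KO libraries, with the mean and SD as bars. *Dusp1* relative to *Dusp4* was between 0.760 and 1.13 in WT and between 1.66 and 1.95 in MSTN-KO, and the 6 ratios drawn are among the 8 of 13 without overlap, while the 5 that overlapped are not drawn.

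*Spry2*, the Sprouty gene with the highest level here, was at 32.1, 29.5 and 22.0 FPKM in the WT libraries. It was at 20.5, 18.9 and 18.9 FPKM in the MSTN-KO libraries. All MSTN-KO values lay below the WT values, and WT replicate 3 was the nearest to them. That library was also the lowest of the WT libraries for *Dusp4*, *Spry1* and *Etv5*. It held the least muscle differentiation RNA of the WT libraries, and a link with these values was not tested. The log2 fold change was -0.48 ± 0.15 (SE, adjusted p = 0.0415 by limma), 0.697 times the WT mean. The call was lost without the filter on low FPKM (adjusted p = 0.0799), without the variance trend (0.0568) and after the length and GC correction (0.0654). Of the 6 fits with 1 library left out, it held only in that without WT replicate 3 (adjusted p = 0.0112). In the other fits, without WT replicate 1 or 2 or without MSTN-KO replicate 1, 2 or 3, the adjusted p was 0.0654 to 0.162.

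*Spry1* lies on chromosome 3 from 37639947 to 37644598, where a gene on the other strand overlaps it. It was the lowest of the 10 genes, at 1.60, 1.08 and 0.887 FPKM in WT and at 0.546, 0.461 and 0.610 FPKM in MSTN-KO. The values did not overlap, and the MSTN-KO mean was 0.454 times that of WT. The log2 fold change was -0.50 ± 0.18 (SE, adjusted p = 0.0734 by limma), a scale that understates the change of a gene near 1 FPKM, and it did not pass. It passed after the length and GC correction (adjusted p = 0.0137), without the variance trend (0.0434), without the filter (0.0457) and with scaling to 1000000 (0.0278). It did not pass with any library left out (adjusted p between 0.0656 and 0.225) or with quantile normalization, where it was -0.30 (0.247). Nor did it pass with a pseudocount of 0.1 (0.0692), scaling by the 75th percentile (0.0599) or the replicate block alone (0.102).

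*Spry4*, where annotated genes also lie on the other strand, was at 2.68, 2.65 and 1.92 FPKM in WT and at 2.78, 1.82 and 2.05 FPKM in MSTN-KO. *Spred1*, which restrains RAS through neurofibromin, was at 9.02, 7.72 and 8.29 FPKM in WT and at 6.61, 9.77 and 6.80 FPKM in MSTN-KO. Both overlapped between the groups, with log2 fold changes of -0.089 (95% confidence interval -0.47 to 0.29) and -0.11 (-0.47 to 0.24). The sign of *Spry4* turned with quantile normalization and that of *Spred1* with the length and GC correction. Relative to *Spry4* in the same library, *Spry2* was at 11.5 ± 0.419 in WT and 8.99 ± 1.52 in MSTN-KO, without overlap. Relative to *Spred1* it overlapped, at 3.35 ± 0.615 and 2.61 ± 0.602.

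*Etv4* and *Etv5* are close relatives in the PEA3 group of ETS factors. The WT libraries held 6.60, 6.16 and 5.65 FPKM of *Etv5*, and the MSTN-KO libraries 2.71, 4.16 and 4.59 FPKM. *Etv4* was at 59.7, 47.0 and 51.8 FPKM in WT and at 51.6, 50.9 and 62.8 FPKM in MSTN-KO. Only *Etv5* parted the groups, and its MSTN-KO replicate 1 was the lowest. *Etv5* had a log2 fold change of -0.59 ± 0.18 (SE, adjusted p = 0.0353 by limma) and a mean 0.622 times that of WT. On the log2(FPKM + 1) scale this was the largest change of the 10 genes, while by the ratio of means (0.454) and with a pseudocount of 0.1 (-0.98 against -0.70) that of *Spry1* was larger. *Etv4* had a log2 fold change of 0.060 (95% confidence interval -0.24 to 0.36, limma adjusted p = 0.789), with the sign turning under quantile normalization, scaling to 1000000 and the length and GC correction. The ratio of *Etv4* to *Etv5* was 8.61 ± 0.855 in WT and 15.0 ± 3.59 in MSTN-KO, without overlap. The call for *Etv5* was lost with quantile normalization (adjusted p = 0.104), without the filter (0.0900) and without WT replicate 1 (0.103), 2 (0.107) or 3 (0.0548) or MSTN-KO replicate 1 (0.166). It held without MSTN-KO replicate 2 (0.0293) or 3 (0.0287). By the smallest distance between profiles of log2(FPKM + 1) over the 6 libraries, each centred on its mean, the genes most like *Etv5* were *Ttc9* (distance 0.127), *Tubb2a* (0.143) and *Alox5* (0.178).

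**Figure D3:**
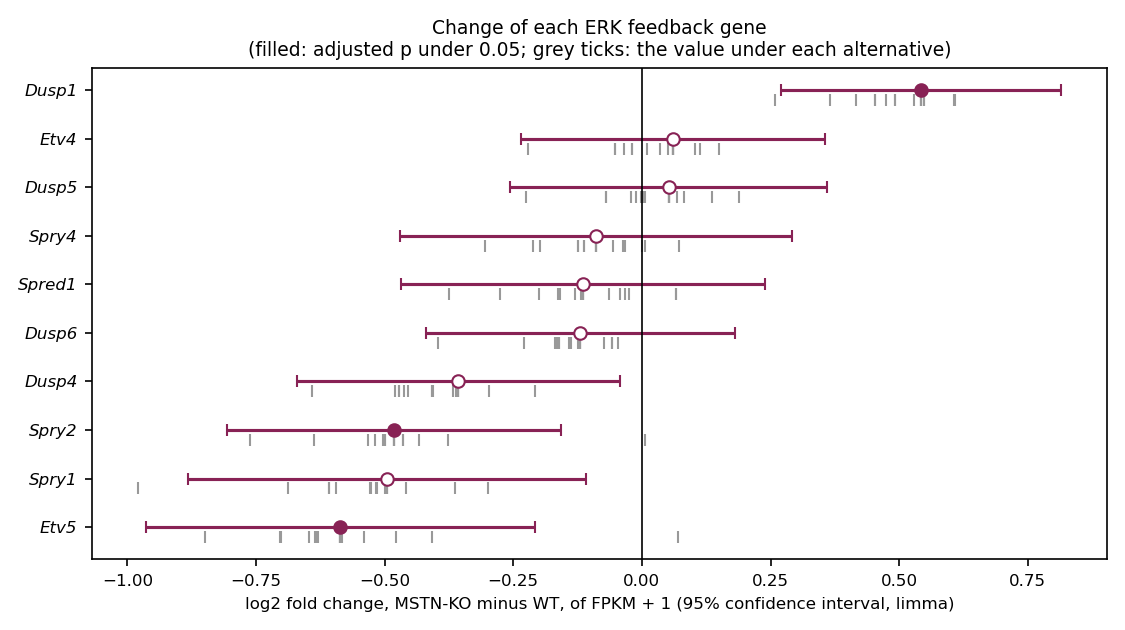
Log2 fold change of FPKM + 1, MSTN-KO minus WT (horizontal axis), of each ERK feedback gene with its 95% confidence interval from limma; filled points had an adjusted p under 0.05 and grey ticks show the value under each alternative. *Dusp1* stayed above 0 under all of them, and *Spry2* and *Etv5* crossed 0 only when set against the genes within 5 Mb (0.0052 and 0.071).

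Both genes that fell lie in parts of the genome where most neighbours were lower in the MSTN-KO libraries as well. *Etv5* (ENSMUSG00000013089) is on chromosome 16 of GRCm38 from 22381309 to 22439719. Of the 62 other tested genes that start within 5 Mb of it, 59 had a log2 fold change below 0, and 48 were called lower and 1 higher, with a median of -0.68. The neighbours' median deviation from the WT mean was -0.63, -0.74 and -0.60 in MSTN-KO replicates 1, 2 and 3 and between -0.039 and 0.057 in the WT libraries. All 74 tested genes that start between 16 and 24 Mb on chromosome 16, limits chosen after the values were seen, were below 0, *Etv5* among them, with a median of -0.69, while 121 of the 266 others on that chromosome were below 0, with a median of 0.036.

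*Spry2* (ENSMUSG00000022114) is on chromosome 14 from 105891947 to 105896819. Of its 11 tested neighbours within 5 Mb, 9 were below 0 and 4 were called lower, with a median of -0.33, and the other tested genes of chromosome 14 had a median of -0.29. The neighbours of *Dusp1* had a median of 0.17 (144 genes), with 26 called higher and 9 lower. Around the other 7 genes the medians lay between -0.084 (*Spry4*) and 0.057 (*Spred1*). When the median of the neighbours was subtracted in each library and the fit repeated, a setting chosen after seeing the data, the log2 fold change of *Etv5* was 0.071 (limma adjusted p = 0.825), that of *Spry2* 0.0052 (0.990) and that of *Dusp1* 0.37 (0.0596). *Dusp4* moved from -0.36 to -0.48 (adjusted p = 0.0517), and *Spry1* was at -0.51 (0.0970). Relative to their neighbours, 0 of the 10 genes had an adjusted p under 0.05 in limma. Of the 10837 tested genes, 704 were called higher and 740 lower in that fit. An unadjusted p under 0.05 was seen for 3 of the 10 genes. The share of all tested genes with such a p was 32.6% in the main fit and was not taken for this one. Genomic DNA was not analysed here, and the part of these regions in the result was not tested.

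**Figure D4:**
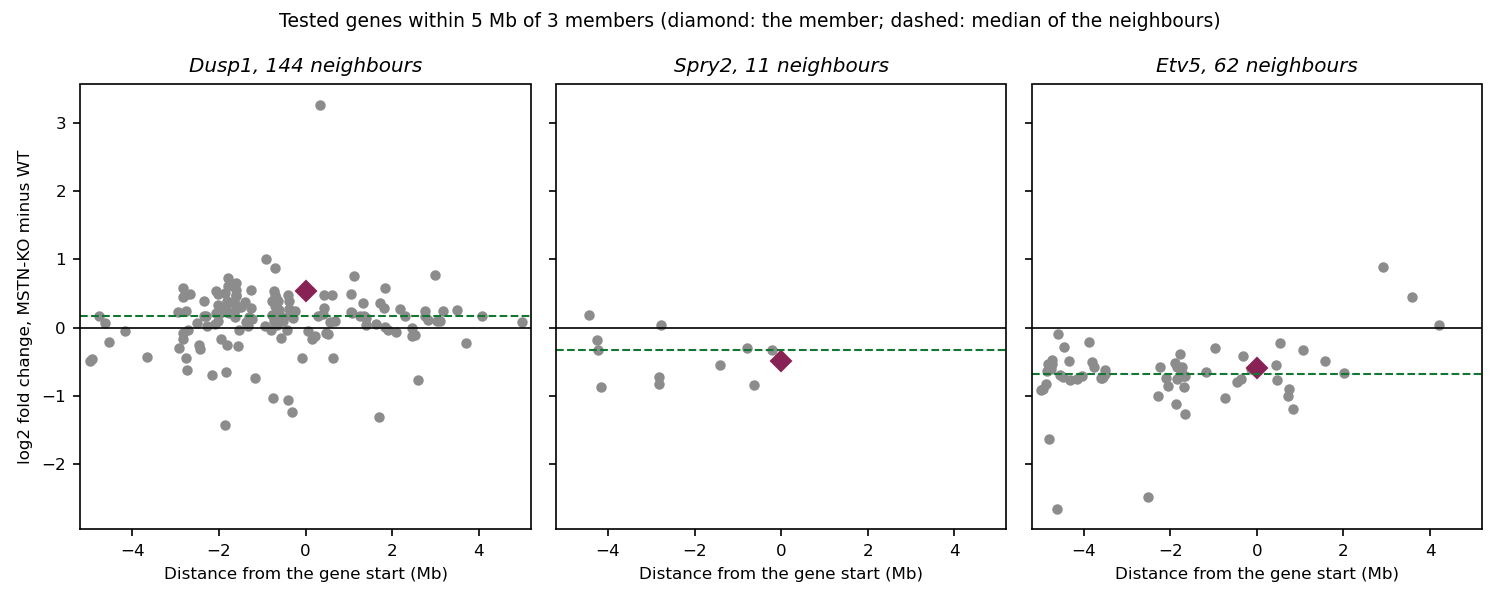
Log2 fold change, MSTN-KO minus WT, of the tested genes within 5 Mb of *Dusp1*, *Spry2* and *Etv5* (grey points) against their distance from the gene start in Mb, with the member as a diamond and the neighbours' median dashed. *Etv5* (-0.59) lay among its 62 neighbours, 59 of them below 0, and *Dusp1* (0.54) lay above the median of 0.17 of its 144 neighbours.

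Promoter sequences were taken from RefSeq on GRCm38, where 7 of the 10 genes had an entry that was used. The promoters of *Dusp4*, *Spry4* and *Etv4* were not searched. Shown are the 250 bases before the start of the 3 genes that passed the test and of *Dusp5*, the only other gene of the 7 with a CRE or CArG box. The motifs were chosen with the results known. They were the CRE (TGACGTCA), the AP-1 site (TGANTCA), an ETS site (CCGGAA), the CCAAT box and the CArG box bound by SRF, searched on both strands, and capitals mark every match. Each sequence is written 5′ to 3′ on the strand of the gene.

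*Dusp1*, chr17:26508473-26508722, minus strand: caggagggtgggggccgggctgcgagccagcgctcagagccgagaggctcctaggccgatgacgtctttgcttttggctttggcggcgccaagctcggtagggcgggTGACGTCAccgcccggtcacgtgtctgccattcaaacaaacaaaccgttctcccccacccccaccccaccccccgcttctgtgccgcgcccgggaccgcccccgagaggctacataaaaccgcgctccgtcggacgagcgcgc
*Dusp5*, chr19:53528895-53529144, plus strand: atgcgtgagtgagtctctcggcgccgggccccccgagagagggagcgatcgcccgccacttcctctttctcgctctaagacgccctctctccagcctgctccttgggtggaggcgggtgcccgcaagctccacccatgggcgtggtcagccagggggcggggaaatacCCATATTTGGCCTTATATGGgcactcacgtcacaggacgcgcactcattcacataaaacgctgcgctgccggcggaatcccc
*Spry2*, chr14:105896820-105897069, minus strand: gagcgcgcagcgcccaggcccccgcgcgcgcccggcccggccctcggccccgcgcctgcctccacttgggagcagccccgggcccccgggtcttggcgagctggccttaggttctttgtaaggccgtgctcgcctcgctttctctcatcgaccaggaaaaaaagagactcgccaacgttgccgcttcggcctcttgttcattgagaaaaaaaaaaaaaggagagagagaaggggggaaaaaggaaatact
*Etv5*, chr16:22439571-22439820, minus strand: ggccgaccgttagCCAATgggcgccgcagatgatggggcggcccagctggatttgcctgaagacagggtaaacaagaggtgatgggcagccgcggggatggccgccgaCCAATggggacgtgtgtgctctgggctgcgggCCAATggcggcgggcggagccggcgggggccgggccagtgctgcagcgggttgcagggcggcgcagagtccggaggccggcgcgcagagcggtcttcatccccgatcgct

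The *Dusp1* window held a full CRE from 143 to 136 bases before the start, a motif found in 1.55% of 32851 promoter windows of the same length. That of *Dusp5* held a pair of CArG boxes side by side, from 82 to 73 and from 72 to 63 bases before the start, where 1.47% of all windows held at least 1. The *Etv5* window shown held 3 CCAAT boxes, a motif of 33.8% of all windows, and that of another annotated *Etv5* start, chr16:22438369-22438618, held 1. The *Spry2* window held none of the 5 motifs. AP-1 sites (6.75% of all windows) and the ETS letters (12.03%) were in none of the windows of the 7 genes. A match is only a run of letters, and binding was not measured.

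The other genes of the pathway were taken from lists chosen with earlier results of these data known. The counts of calls in these lists stand beside 8.78% called higher and 8.96% lower over all tested genes. An unadjusted p under 0.05 was found for 32.6% of all tested genes. Of 9 further MAP kinase phosphatases, 1 was called higher and 2 lower, with a median log2 fold change of -0.25. *Dusp2*, an inducible nuclear phosphatase, rose from 7.61 ± 1.49 to 13.0 ± 3.14 FPKM (SD, n = 3; log2 fold change 0.69, limma adjusted p = 0.0221). *Dusp8*, which acts mainly on JNK and p38, fell from 8.84 ± 1.02 to 5.50 ± 0.247 FPKM (-0.59, adjusted p = 0.0139). *Dusp3* fell from 46.0 ± 5.95 to 31.6 ± 5.19 FPKM (-0.53, adjusted p = 0.0261). Of 7 further inhibitors of the pathway tested (*Spred2*, *Spred3*, *Il17rd*, *Errfi1*, *Pebp1*, *Lrig1* and *Cbl*), 0 were called in either direction, and their log2 fold changes lay between -0.35 and 0.43, 1 of them (*Lrig1*) with an unadjusted p under 0.05 in limma.

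In the cascade itself, from adaptors to kinases, 2 of the 20 genes described were called higher and 2 lower, with a median log2 fold change of 0.039. *Ksr1*, a scaffold for RAF, MEK and ERK, rose from 2.95 ± 0.0584 to 6.53 ± 0.297 FPKM (0.93, limma adjusted p = 0.000816), and *Map2k2*, the gene of MEK2, rose from 125 ± 8.22 to 167 ± 14.9 FPKM (0.42, adjusted p = 0.0326). *Rasa1*, which switches RAS off, fell from 9.16 ± 0.601 to 4.89 ± 2.23 FPKM (-0.85, adjusted p = 0.0164), and *Nras* fell from 30.001 ± 1.11 to 18.5 ± 2.31 FPKM (-0.67, adjusted p = 0.00431). *Mapk3*, the gene of ERK1, and *Map2k1*, that of MEK1, did not pass, with log2 fold changes of 0.11 and 0.040.

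Of 21 further genes known to respond to ERK, 2 were called higher and 5 lower, with a median of 0.14. The immediate early genes *Fos* and *Ier2* rose. *Fos* went from 2.15 ± 0.828 to 17.3 ± 1.76 FPKM in the libraries labelled MSTN-KO (log2 fold change 2.57, limma adjusted p = 1.43e-06), and the direction rests on those labels. It was opposite to that of the authors, who reported *Fos* as lower in MSTN-KO cells by RNA-seq and by qRT-PCR. The cause of this disagreement was not tested. *Ier2* went from 61.7 ± 5.21 to 96.6 ± 10.5 FPKM (0.64, limma adjusted p = 0.00487), close in size to *Dusp1*. Those that fell were *Epha4* (-0.98), *Lif* (-0.97), *Hbegf* (-0.64), *Etv1* (-0.63) and *Epha2* (-0.60), with adjusted p between 0.00143 and 0.0294. *Etv1*, the third PEA3 factor, was at 1.33 ± 0.187 FPKM in WT and 0.515 ± 0.237 FPKM in MSTN-KO. *Etv1*, *Lif* and *Epha4* passed the filter only through WT libraries. The 14 others did not pass, with log2 fold changes from -0.58 for *Egr3*, whose groups did not overlap (adjusted p = 0.0521), to 0.84 for *Egr2*, whose groups overlapped (0.116). *Egr1* and *Junb* were at 0.37 and 0.43. Of *Srf* and 3 ternary complex factors (*Elk1*, *Elk3* and *Elk4*), 0 were called by limma, and 0 had an unadjusted p under 0.05.

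**Figure D5:**
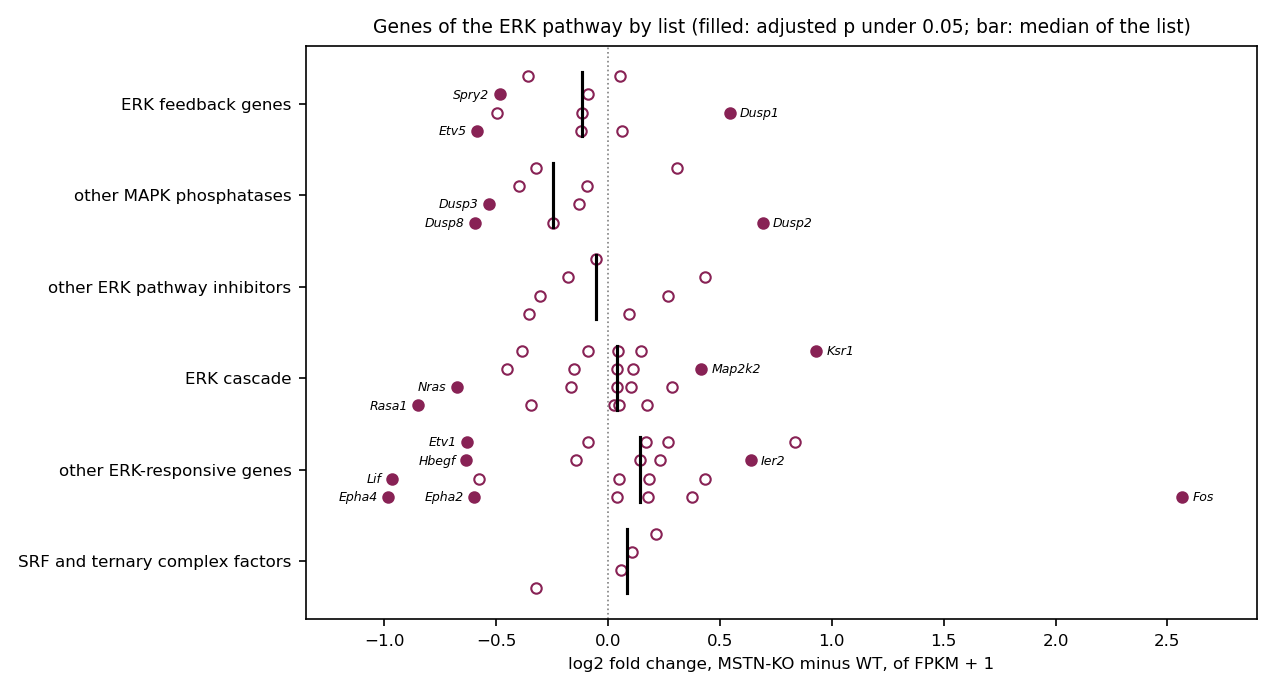
Log2 fold change of FPKM + 1, MSTN-KO minus WT (horizontal axis), of each tested gene in 6 lists of the ERK pathway; filled and named points had a limma adjusted p under 0.05 and bars mark the median of each list. Calls in both directions occurred among the feedback genes, the other phosphatases, the cascade and the other ERK-responsive genes, and *Fos* lay farthest from 0.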

How the data were processed

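RNA-seq libraries of C2C12 cells were grouped by the genotype in their labels (3 WT, 3 MSTN-KO). The authors sequenced total RNA by Illumina protocols and deposited FPKM values per gene, one library per file, without pooling. The submitters' processing notes name Bowtie 0.12.2 and the mouse build mm8. The annotation, counter, strand setting and gene filter are not given in the sources used here. FPKM depend on what else a library holds, so a few abundant genes lower all others. Low values did not give whole reads, and depth is unknown.

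Symbols, positions and exon lengths came from GENCODE M21 (GRCm38), which matched 14445 of 14548 identifiers. GC content came from the longest transcript of each gene. The positions are not those of the authors' build. Log2(FPKM + 1) was fitted for every gene that reached 1 FPKM in any library with limma 3.58.1 (R 4.3.3, eBayes with a trend) and adjusted by the Benjamini-Hochberg method over all genes tested. Single values and ratios were compared by two-sided exact permutation tests. The correction for length and GC content used a smooth from mgcv 1.9.3. Other steps were run in Python 3.11.15 with scipy 1.17.1, pandas 2.3.3, numpy 2.4.6 and, for the plots, matplotlib 3.10.9. The limma step was tested on simulated data before use.

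The members and lists were chosen with earlier results of these data known. All 10 members are named. From other lists, genes with an adjusted p under 0.05 are named, the 5 with the largest change in each list first. Genes of those lists that did not pass and are named here (such as *Mapk3*, *Egr1* and *Srf*), and *Ergic1*, were chosen after their values were seen. For the member with the largest change on the log2(FPKM + 1) scale, the 3 genes nearest in profile are named. Of the marker lists, which serve as checks, the called genes were 10 muscle differentiation markers (*Myog*, *Mymk*, *Mylpf*, *Myl1*, *Myh3*, *Tnnt3*, *Tnnc1*, *Tnni1*, *Ckm* and *Des*, all lower), *Ccnb1* (lower) of 5 proliferation markers, *Myod1* (lower) and *Pax7* (higher) of 4 myoblast markers, *Col3a1* (higher) and *Dcn* (lower) of 4 fibroblast markers, and *Cebpa* and *Fabp4* (both higher) of 2 adipocyte markers. *Fabp4* passed the filter only through MSTN-KO libraries, and *Myh3* and *Ckm* only through WT libraries. Of the macrophage markers 1 was tested and 0 were called, and the 4 endothelial markers were below the filter. Some listed genes were not analysed here, and a result of the ERK cascade list is not reported here. The alternatives were a pseudocount of 0.1, other filters, no trend, 3 scalings, the length and GC correction, the replicate block with and without it, each library left out, and, added after seeing the data, values relative to neighbouring genes.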

Additional observations from a re-analysis of the deposited data

How the results depend on the processing

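The number of the 10 genes called higher was 1 in every alternative but scaling to a sum of 1000000, which gave 0, and values relative to the genes within 5 Mb, which gave 0 too and were chosen after seeing the data. The number called lower was 2 and moved to 1 without a filter on low FPKM, to 3 with the length and GC correction, to 4 with scaling to 1000000, to 4 with the replicate block and length and GC correction together, and to 0 relative to the genes within 5 Mb. With 1 library left out it ran from 0 to 1. It was 0 without WT replicate 1 or 2 or MSTN-KO replicate 1. Over all genes, scaling to 1000000 gave 350 calls higher and 2367 lower (12.9% higher), against 952 and 971 (49.5% higher), and leaving out WT replicate 2 gave the fewest, 423 and 606. The calls higher also dropped by over 1.5 times without WT replicate 3 (603), MSTN-KO replicate 1 (511) or MSTN-KO replicate 3 (583).

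The replicate numbers are shared by the groups. Same-numbered libraries deviated from their group means with correlations across genes of -0.0153, -0.128 and -0.142. Libraries with different numbers had correlations between -0.0691 and 0.161. These values cannot tell whether same-numbered libraries shared a culture or a batch. With the replicate block 1 gene was called higher and 2 lower, as without it.

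*Dusp1* kept its direction and was not called with scaling to 1000000 (0.26) or relative to the genes within 5 Mb (0.37). *Dusp4* was called with quantile normalization (-0.46), scaling to 1000000 (-0.64) and the length and GC correction (-0.47, also with the block). *Spry1* was called without a filter or without the trend (-0.50 each), with scaling to 1000000 (-0.69) and with the length and GC correction (-0.61, also with the block). It could not be tested with a filter on the mean. *Spry2* was not called without a filter or without the trend (-0.48 each) or with the length and GC correction (-0.50), and was 0.0052 relative to the genes within 5 Mb. It lay between -0.64 and -0.38 with 1 library left out. *Etv5* was not called without a filter (-0.59) or with quantile normalization (-0.48), and was 0.071 relative to the genes within 5 Mb. It lay between -0.70 and -0.41 with 1 library left out. Among the genes never called, the sign turned for *Dusp5* with quantile normalization (-0.0020), scaling to 1000000 (-0.23) and the length and GC correction (-0.069, also with the block), for *Etv4* with the same (-0.020, -0.22 and -0.052), for *Spred1* with the length and GC correction (0.065, also with the block), and for *Spry4* with quantile normalization (0.072) and relative to the genes within 5 Mb (0.0053). With 1 library left out *Dusp5* ran from -0.021 to 0.19 and *Etv4* from -0.036 to 0.15. *Dusp6* kept its direction and was not called in any alternative tried. The causes of these changes were not tested.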
